A study of Mus musculus with 20 samples.

Results

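The genes described here are 10 genes of the circadian clock and its direct outputs in the mouse heart: the activators Arntl and Npas2, the repressors Nr1d1, Nr1d2, Per1, Per2 and Per3, and the output factors Dbp, Tef and Hlf. They were taken by exact gene symbol from 2 deposited tables of normalised counts, 1 per age. All 10 were listed at both ages, among 17808 genes at 6 weeks, 18657 at 6 months and 17243 in both. All 10 also passed the filter for testing, a value of at least 10 in 3 or more libraries at 6 weeks and in 4 or more at 6 months.

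The hearts came from mice with a knocked-out (KO) or wild-type (WT) Sorbs2 gene, an adaptor that links Z-disc proteins to actin filaments. At 6 weeks of age there were 3 KO and 3 WT mice. At 6 months there were 4 KO mice given Sorbs2 back (KO+AAV), 5 KO mice and 5 WT mice. The KO+AAV mice had been injected on postnatal day 2 with an AAV9 vector in which the Tnnt2 promoter, active in cardiomyocytes, drives Sorbs2. The KO and WT mice were untreated, and the labels name no group given an empty vector. The labels do not say whether Sorbs2 was lost in all cells or in cardiomyocytes alone. All mice lived under a cycle of 12 h light and 12 h dark. The labels give no time of day for collection and no sex, and all statements on phase below are limited by that.

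In mammals the clock is a loop of transcription factors. ARNTL (also called BMAL1) pairs with CLOCK or NPAS2, binds E-box sequences and switches on the Per and Cry genes, Nr1d1, Nr1d2 and Dbp. PER and CRY proteins then block that pair, while NR1D1 and NR1D2 (REV-ERB alpha and beta) bind RORE sequences and silence Arntl and Npas2. DBP, TEF and HLF are related bZIP factors that bind D-box sequences and carry the rhythm to other genes. In mouse heart and other peripheral tissues the transcripts of Arntl and Npas2 peak when those of Nr1d1 and Dbp are at their lowest, and Per2 peaks later in the day than Nr1d1.

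These sequences are shown because the members are linked through them. For 9 of the 10 members, all but Per2, RefSeq (GRCm38.p6) gave promoter windows, 250 bases before to 50 after a start site. The windows were searched on both strands for an E-box (CACGTG), a D-box (TTANGTAA) and the core of a RORE (AGGTCA); in the members no motif overlapped another. The D-box was in 2.29% of all 32544 promoter windows and, among these 9 members, in Per3 alone, where it occurred at 2 places. The E-box was in 7.17% of all windows and in those of Per1 and Tef; Tef has it at each of 2 start sites. The RORE core was in 16.2% of all windows and in those of Arntl, Per1 and Nr1d2. Each stretch below is printed 5′ to 3′ on the strand of its gene, with the motif in capitals; TGACCT in Per1 is the RORE core read on the other strand. A match is a run of letters and says nothing about binding in these hearts.
Per3, D-box, chr4:151044796-151044890, minus strand: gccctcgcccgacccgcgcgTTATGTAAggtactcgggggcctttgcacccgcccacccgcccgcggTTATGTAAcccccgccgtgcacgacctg
Per1, E-box and RORE core, chr11:69098763-69098837, plus strand: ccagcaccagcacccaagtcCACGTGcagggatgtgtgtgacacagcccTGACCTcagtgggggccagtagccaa
Tef, E-box at the upstream start, chr15:81802526-81802571, plus strand: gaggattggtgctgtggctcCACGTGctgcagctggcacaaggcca
Tef, E-box at the downstream start, chr15:81811256-81811301, plus strand: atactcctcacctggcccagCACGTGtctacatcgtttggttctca
Nr1d2, RORE core, chr14:18239158-18239203, minus strand: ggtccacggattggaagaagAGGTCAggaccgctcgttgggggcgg
Arntl, RORE core just after the start, chr7:113207530-113207559, plus strand: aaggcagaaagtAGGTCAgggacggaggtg

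Some facts of the libraries bear on all that follows. Summed over genes, KO hearts had 6790437 to 7414665 normalised counts at 6 weeks and WT hearts 6705133 to 8240294; the sums at 6 months were 12024143 to 13041764 in KO+AAV, 11359135 to 12222476 in KO and 12492381 to 13670340 in WT hearts. Sorbs2 matched the labels: it averaged 325 ± 45.3 in KO against 1717 ± 292 in WT hearts at 6 weeks (SD, n = 3 each), and 11015 ± 6762 in KO+AAV (n = 4), 1020.4 ± 624.5 in KO and 5040.2 ± 369 in WT hearts (n = 5 each) at 6 months. Libraries of a group differed at 6 months: Sorbs2 was 1648 and 1755 in KO 1 and KO 5 but 494 to 612 in KO 2 to 4. It was 4696 and 5753 in KO+AAV 1 and 2 but 15690 and 17923 in KO+AAV 3 and 4. The summed level of 5 atrial markers was 121830 to 225580 in KO and 95731 to 183310 in WT hearts at 6 weeks, against 7752 to 32735 in KO+AAV, 37420 to 126860 in KO and 5916 to 9973 in WT hearts at 6 months, in tissue labelled left ventricle. The summed level of 3 ventricular markers was 84718 to 111980 in KO and 85943 to 190780 in WT hearts at 6 weeks. At 6 months it was 240290 to 361040 in KO+AAV, 153110 to 217460 in KO and 193300 to 357340 in WT hearts. The tables were normalised separately. Among the atrial markers Nppa rose in KO over WT hearts at 6 months (log2 3.36, adjusted p = 3.24e-05 in limma), but Myl4 was not called (0.36, adjusted p = 0.809). Bmp10 was at 0 in all KO libraries at that age. Whether atrial tissue was part of the hearts taken was not tested. At 6 weeks the sums of 5 endothelial markers (7566 to 7863 in KO against 4009 to 5874 in WT) and of 6 fibroblast markers (20159 to 25873 against 15395 to 18367) did not overlap between the groups. Nor did the sum of 8 cardiomyocyte markers, which was lower in KO (290740 to 352030 against 363500 to 476090), and none of these markers was at 0. Within the endothelial list Cdh5, Pecam1 and Emcn had log2 changes of 1.18, 1.09 and 0.87, but Tie1 had 0.19 and Kdr -0.02. Of the fibroblast markers, Lum, Col1a2 and Col1a1 had 0.89, 0.81 and 0.77, but Dcn, Pdgfra and Tcf21 had 0.07, -0.06 and -0.08. The 5 skeletal muscle markers summed to 39.4 to 99.8 in KO against 23.9 to 33.6 in WT hearts, with Myh1 and Myh2 at 0 in all KO and Myh4 in all WT libraries. At 6 months the cardiomyocyte markers summed to 886240 to 1397300 in KO+AAV, 600640 to 934570 in KO and 1086100 to 1289900 in WT hearts, and the fibroblast markers to 12276 to 15416 in KO+AAV, 18760 to 28884 in KO and 10217 to 14249 in WT hearts; KO and WT did not overlap for either list. Xist, which marks female libraries, was seen in 1 of 3 libraries of each group at 6 weeks, and in 2 of 4 KO+AAV, 0 of 5 KO and 2 of 5 WT libraries at 6 months. The part of these cell types in the clock results was not tested. Markers of 1 list also differed from each other at 6 months in KO over WT hearts. Myh6 was at log2 -1.19 and Tnni3 at -0.97, but Actn2 at -0.05 and Ttn at 0.41. Col1a1 was at 1.52 and Tcf21 at -0.26. In bulk tissue, fewer cells of a type, less RNA per cell and changes of single genes cannot be told apart by such sums.

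At 6 weeks the output factor Hlf rose in KO hearts, and Arntl lay below WT in all 3 KO libraries while Per2, Per3 and Dbp lay above it. Hlf was the only 1 of the 10 members past the threshold in limma (adjusted p under 0.05), where 0.589% of all 13242 genes tested were called (0.378% higher and 0.211% lower in KO). In 5 of the 10 members the KO and WT libraries did not overlap, as in 21.2% of all genes tested: 4 lay higher in KO (10.9% of genes) and 1 lower (10.3%). Of the members, 8 had a log2 change above 0 and 2 below, with a median of 0.63 beside 0.005 over all genes, and 6 had an unadjusted p under 0.05, as had 2045 of all genes.

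Hlf (chr11:90336536-90390895, minus strand, mm10), a PAR bZIP activator, had 342, 314 and 348 normalised counts in the KO libraries KO2, KO3 and KO4, against 93.7, 75.05 and 123.9 in the WT libraries WT1, WT6 and WT16. Every KO library was above every WT library, and the KO libraries lay close to each other. The mean was 335 ± 18.1 in KO and 97.5 ± 24.7 in WT hearts (SD, n = 3 each), a 3.47-fold increase (95% confidence interval 2.47 to 4.89; log2 1.80, SE 0.23, adjusted p = 0.00791 in limma). The call ended without WT6 (adjusted p = 0.0508), KO3 (0.0534) or KO4 (0.0711), and the change then was 1.62, 1.84 and 1.77 on the log2 scale.

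Its relatives did not pass the test. Dbp (chr7:45705088-45710203, plus strand), which like Hlf binds D-boxes, had 1732, 1697 and 2247 normalised counts in KO2, KO3 and KO4, against 1675, 748 and 1025 in WT1, WT6 and WT16. The groups did not overlap, but the lowest KO library exceeded WT1 by little, and the log2 change of 0.79 (SE 0.27) gave an adjusted p of 0.213. Of the exon bases of Dbp, 18.0% are overlapped by Sphk2 on the opposite strand, and the strand setting of the counting is not given in the sources used here. Tef (chr15:81802421-81826863, plus strand) ranged from 2110.3 to 3765 in KO and from 1365 to 2328 in WT hearts. The groups overlapped, and its log2 change was 0.47 (SE 0.27, adjusted p = 0.440).

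**Figure D1:**
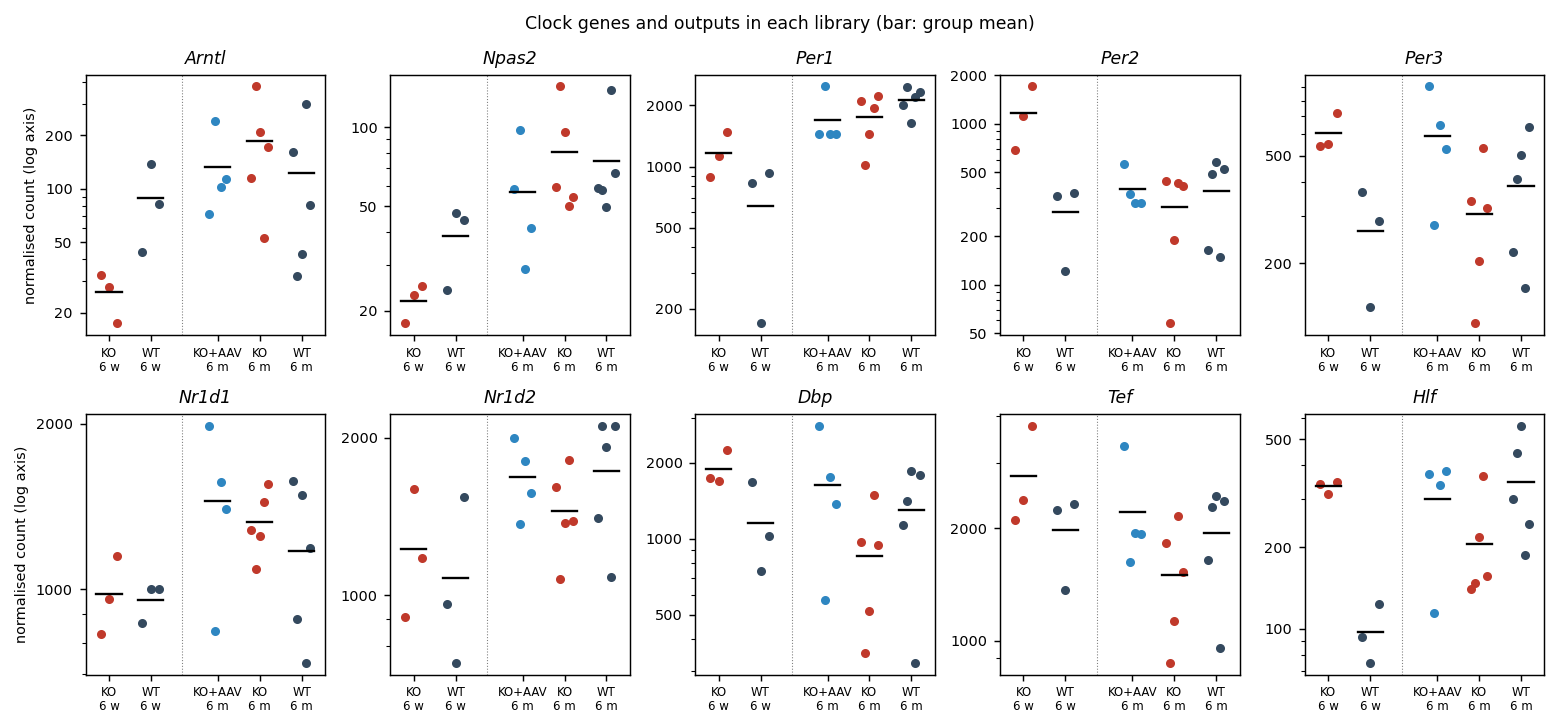
Normalised count (log axis) of each of the 10 genes in each library, by group at 6 weeks (6 w) and 6 months (6 m); points are libraries and bars are group means. At 6 weeks Hlf lies at 314 to 348 in KO hearts, above 75.05 to 123.9 in WT hearts, while at 6 months the groups overlap for every gene; the ages were normalised separately.

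Among the repressors, the Period genes lay higher in KO hearts at 6 weeks without passing the threshold. Per2 (chr1:91415982-91459324, minus strand), the partner of the CRY proteins in the repressing complex, had 685, 1120.1 and 1711 normalised counts in KO2, KO3 and KO4, against 355, 122 and 374 in WT1, WT6 and WT16. All KO libraries were above all WT libraries, and the log2 change of 2.11 (SE 0.42; 4.31-fold, 95% interval 2.28 to 8.13) gave an adjusted p of 0.0531. Per3 (chr4:151003652-151044665, minus strand), the least essential of the family for rhythm in mice, had 545, 553 and 717 in KO2, KO3 and KO4, against 366, 138 and 287 in WT1, WT6 and WT16. These groups did not overlap either, with a log2 change of 1.29 (SE 0.31, adjusted p = 0.0885).

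Per1 (chr11:69095217-69109960, plus strand), the Period gene that also answers to cAMP and glucocorticoid signals, had 891, 1128 and 1483 normalised counts in KO2, KO3 and KO4, against 833, 169 and 925 in WT1, WT6 and WT16. Here 1 WT library, WT6, stood far below the rest, and the groups overlapped (log2 1.17, SE 0.51, adjusted p = 0.301). WT6 also had the lowest value of all 6 libraries for Per2, Per3, Nr1d2, Dbp, Tef and Hlf and the highest for Arntl and Npas2.

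The REV-ERB genes did not pass the test. Nr1d1 (chr11:98767932-98775333, minus strand) ranged from 829.3 to 1147 in KO and from 869 to 1003 in WT hearts, with a log2 change of 0.02 and a 95% interval of -0.39 to 0.44. Of its exon bases, 8.55% are overlapped by Thra on the opposite strand. Nr1d2 (chr14:18204054-18239127, minus strand) ranged from 909 to 1594 in KO and from 743 to 1537 in WT hearts (log2 0.21, 95% interval -0.41 to 0.83). The KO and WT ranges overlapped for both genes.

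The activators lay on the other side. Arntl (chr7:113207465-113314126, plus strand), the clock gene whose loss alone stops the rhythm in mice, had 32.7, 28.0 and 17.4 normalised counts in KO2, KO3 and KO4, against 44.1, 139 and 81.7 in WT1, WT6 and WT16. Every KO library was below every WT library, and the mean was 26.0 ± 7.8 in KO and 88.2 ± 47.7 in WT hearts (SD, n = 3 each). The log2 change of -1.62 (SE 0.42) gave an adjusted p of 0.107. Npas2 (chr1:39193731-39363236, plus strand), which can stand in for CLOCK, had 17.9, 22.9 and 24.8 in KO2, KO3 and KO4, against 24.0, 47.2 and 44.3 in WT1, WT6 and WT16. KO4 exceeded WT1, so the groups overlapped (log2 -0.74, SE 0.38, adjusted p = 0.377).

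At 6 months 0 of the 10 members passed the test between KO and WT hearts, where 16.3% of all 13419 genes tested did. All 10 overlapped between the groups, whereas 13.8% of all genes did not, and 0 members had an unadjusted p under 0.05, against 3846 of all genes. Hlf had the lowest adjusted p, 0.201, with a log2 change of -0.75 (95% interval -1.53 to 0.04). The interval for Arntl ran from -0.47 to 2.02 around a log2 change of 0.78, and that for Per2 from -1.54 to 0.70 around -0.42. Intervals this wide do not show that the groups are alike.

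The wide intervals came with a wide spread between animals of the same group. Arntl had 72.1, 242, 102 and 114 normalised counts in KO+AAV 1 to 4, 115.5, 378, 208, 53.0 and 172 in KO 1 to 5, and 161, 32.1, 43.1, 301 and 81.0 in WT 1 to 5. The highest library exceeded the lowest 3.36-fold in KO+AAV, 7.14-fold in KO and 9.36-fold in WT hearts. KO+AAV 2, KO 2 and WT 4 were highest in their groups.

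Dbp had 2798, 572, 1749 and 1377 normalised counts in KO+AAV 1 to 4, 966, 353, 519.9, 1492 and 942 in KO 1 to 5, and 1128, 1403.5, 1851.5, 323 and 1783 in WT 1 to 5. KO+AAV 2, KO 2 and WT 4, the highest for Arntl, were the lowest in their groups for Dbp. Hlf had 370.3, 115, 339.5 and 382 in KO+AAV 1 to 4, 139.97, 147, 217, 365 and 156 in KO 1 to 5, and 301, 445, 559.9, 188 and 243 in WT 1 to 5. For Hlf KO+AAV 2 and WT 4 were again lowest, while in KO hearts KO 1 was slightly below KO 2.

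Per2 had 565, 365, 320.3 and 321 normalised counts in KO+AAV 1 to 4, 439, 57.5, 190.4, 431 and 409 in KO 1 to 5, and 165, 489.8, 579.6, 149.6 and 525 in WT 1 to 5. KO 2 stood lowest of all 14 libraries, and WT 4 and WT 1 lay together below the other WT libraries. Per3 had 902, 277, 649.9 and 529.6 in KO+AAV 1 to 4, 339.8, 119.8, 205, 533 and 320.4 in KO 1 to 5, and 219.7, 411, 503, 162 and 637 in WT 1 to 5. KO+AAV 2, KO 2 and WT 4 were the lowest of their groups.

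**Figure D2:**
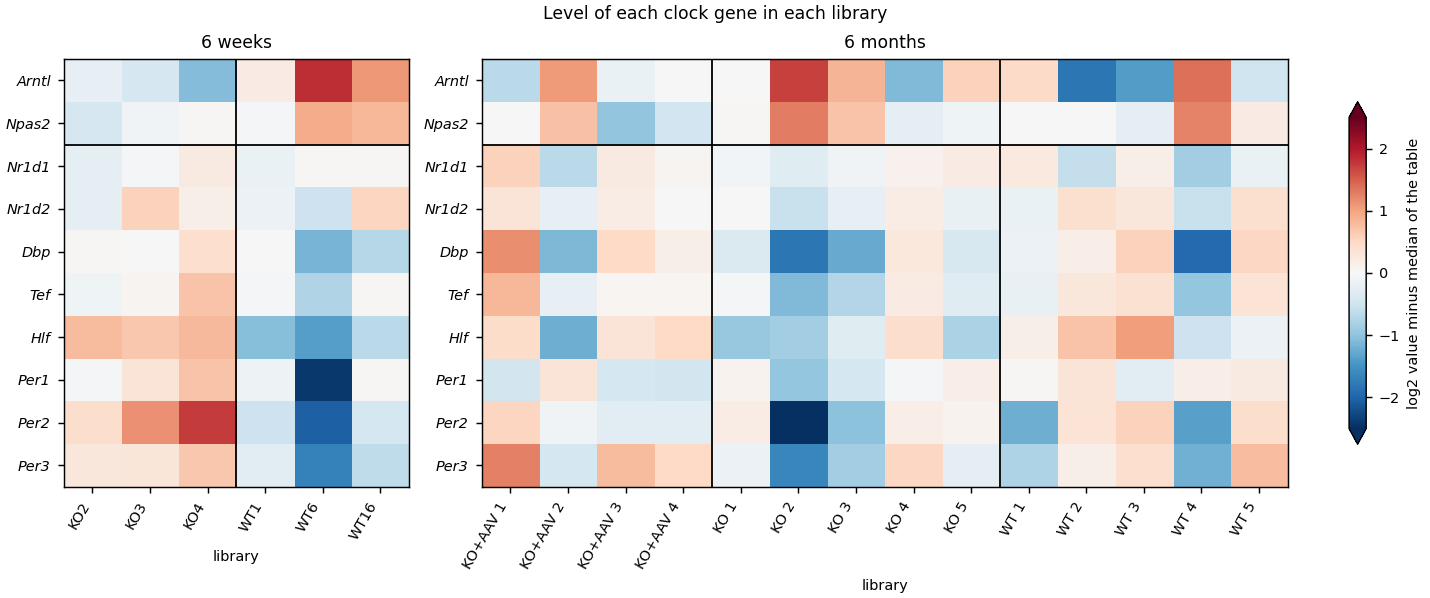
Log2 value of each gene in each library minus its median over the libraries of the same table (red above, blue below; the colour scale ends at 2.5 either way); vertical lines part the groups and the horizontal line parts Arntl and Npas2 from the other genes. At 6 weeks red and blue divide KO from WT libraries for Hlf, Per2 and Per3, while at 6 months KO+AAV 2, KO 2 and WT 4 are red for Arntl and Npas2 and blue for Dbp.

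The remaining members are given by their ranges. Tef ranged from 1622 to 3327 in KO+AAV, 875 to 2161 in KO and 958 to 2442.5 in WT hearts. Nr1d2 ranged from 1369.7 to 1997 in KO+AAV, 1075 to 1809 in KO and 1083.5 to 2108 in WT hearts, and Nr1d1 from 841 to 1983 in KO+AAV, 1088 to 1551 in KO and 735 to 1574.5 in WT hearts. Npas2 ranged from 28.8 to 98.2 in KO+AAV, 50.1 to 143 in KO and 49.97 to 138 in WT hearts, again with KO+AAV 2, KO 2 and WT 4 highest. Per1 ranged from 1439.8 to 2479.8 in KO+AAV, 1014 to 2217 in KO and 1647 to 2463 in WT hearts, and its highest KO+AAV library was KO+AAV 2, the library that was lowest for Dbp, Per3 and Hlf.

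Set against all genes tested, the spread within groups was large for most members at 6 months. The SD of log2 values within groups was 1.08 for Arntl, above that of 97.9% of all genes, 0.98 for Per2 (96.9%), 0.94 for Dbp (96.4%) and 0.79 for Per3 (93.6%), beside a median of 0.32 over all genes. Hlf (89.4%), Npas2 (87.9%) and Tef (79.6%) followed. Nr1d1 (65.9%), Per1 (59.9%) and Nr1d2 (51.5%) lay near the middle of all genes. At 6 weeks the order was another: Per1 was most variable (SD 1.00, above 97.3% of genes), and Hlf (0.26, above 36.5%) and Nr1d1 (0.19, above 16.6%) were among the steadier genes.

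**Figure D3:**
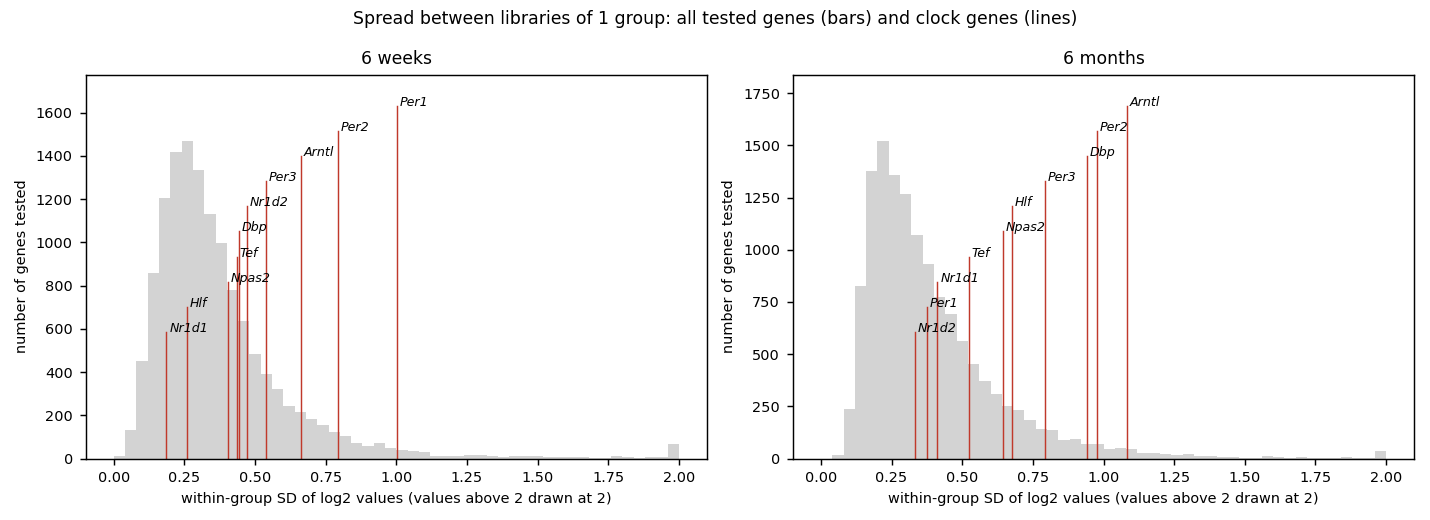
Number of genes tested (vertical axis, grey bars) by the SD of their log2 values within groups (horizontal axis), with the SD of each clock gene as a red line whose height carries no meaning. At 6 months Arntl (1.08), Per2 (0.98) and Dbp (0.94) lie in the right tail, while Nr1d2 (0.33) lies at the median of all genes (0.32).

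The members varied together. Across the 14 libraries at 6 months, after removal of group means, 7 of the 9 other members passed a permutation test of their relation to Arntl (Benjamini-Hochberg adjusted over 9 relations). Without adjustment the same 7 had p under 0.05 for r, as had 2.76% of all 13418 genes tested other than Arntl. Npas2 went with Arntl (r = 0.737, rho = 0.714; permutation p adjusted to 0.00381 and 0.0138). Opposite to Arntl went Nr1d2 (r = -0.934, rho = -0.916), Tef (-0.90 and -0.899), Per3 (-0.88 and -0.895), Dbp (-0.871 and -0.895), Per2 (-0.797 and -0.754) and Hlf (-0.775 and -0.719), with adjusted permutation p values from 0.000405 to 0.00381 for r and from 0.00069 to 0.0139 for rho. Without WT 2 and KO 2, the libraries farthest from the median of Arntl, these r ranged from -0.78 for Per2 to -0.917 for Per3, and that of Npas2 was 0.698.

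Nr1d1 and Per1 did not pass. Nr1d1 gave r = -0.46 and rho = -0.415 (adjusted permutation p 0.146 and 0.187), and r = -0.669 without WT 2 and KO 2. Per1 gave r = -0.123 and rho = -0.0769 (adjusted permutation p 0.681 and 0.811), and r turned to 0.401 without those libraries. Among the outputs Dbp and Tef had r = 0.948 with each other, and Per3 had 0.94 with Dbp. At 6 weeks group means were removed from 6 libraries and no test was run. There r with Arntl was -0.979 for Dbp, -0.932 for Per3, -0.851 for Per2, -0.84 for Tef and -0.809 for Per1. It was weaker for Hlf (-0.387), Nr1d2 (-0.274) and Nr1d1 (-0.0718). At 6 months Arntl and Npas2 thus lay opposite to Nr1d2, Tef, Per3 and Dbp between animals of the same group, which is the arrangement that the name clock genes implies.

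**Figure D4:**
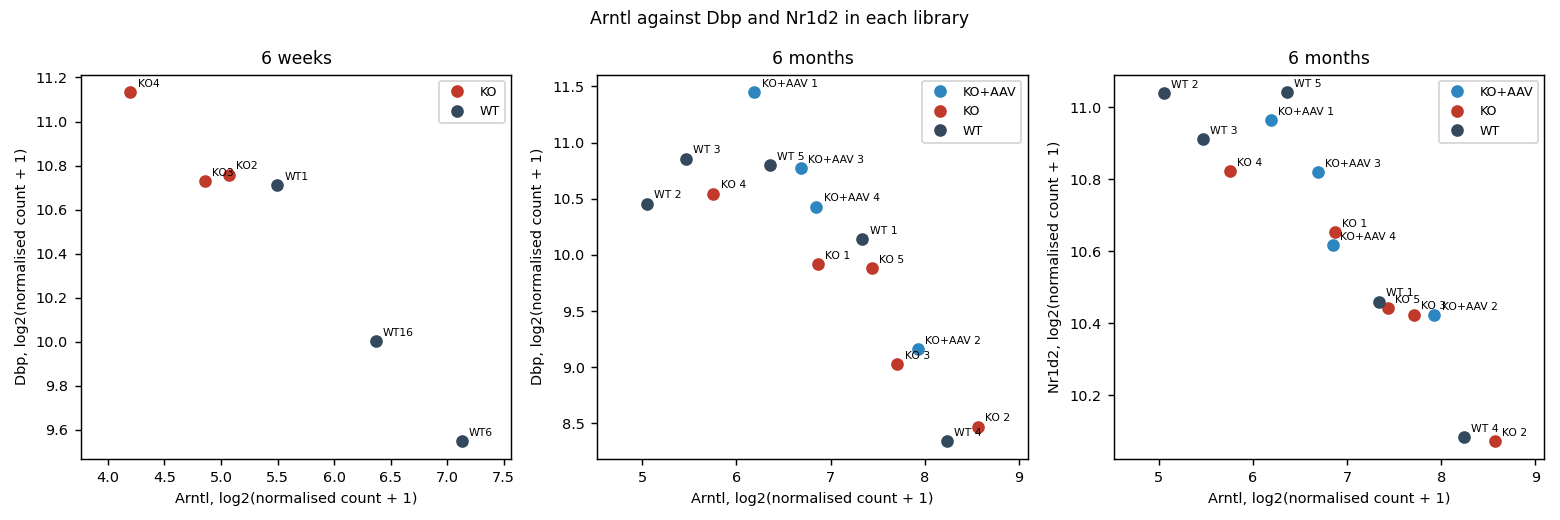
Log2 (normalised count + 1) of Arntl (horizontal) against Dbp at 6 weeks and at 6 months and against Nr1d2 at 6 months (vertical), with 1 point per library. Dbp and Nr1d2 are lower where Arntl is higher; KO+AAV, KO and WT libraries mix at 6 months, and at 6 weeks the KO libraries hold the low-Arntl end.

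A value per library sums up this arrangement: the mean log2 value of the 8 repressors and outputs minus that of Arntl and Npas2, here called the clock contrast. It is a description, with no test. At 6 weeks it was 5.10, 5.31 and 5.88 in KO2, KO3 and KO4, against 4.28, 2.04 and 3.48 in WT1, WT6 and WT16. All KO libraries lay above all WT libraries, and the KO libraries lay within 0.78 of each other while the WT libraries spanned 2.24. At 6 months it was 4.34, 2.06, 4.17 and 3.73 in KO+AAV 1 to 4, 3.25, 0.68, 2.02, 4.31 and 3.00 in KO 1 to 5, and 2.92, 4.55, 4.62, 1.21 and 3.87 in WT 1 to 5. Each group spread widely at this age, over 2.28 in KO+AAV, 3.63 in KO and 3.42 in WT hearts, and the means were 3.58 ± 1.04 (SD, n = 4), 2.65 ± 1.37 and 3.43 ± 1.42 (n = 5 each).

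The log2 ratio of Nr1d1 to Per2, which are known to peak at different hours, does not use Arntl, but both genes are also in the clock contrast. At 6 weeks the ratio was 0.28, -0.22 and -0.58 in KO2, KO3 and KO4, against 1.29, 3.03 and 1.42 in WT1, WT6 and WT16. The groups did not overlap, but neither did they for Per2 alone, while Nr1d1 had a log2 change of 0.02. The ratio thus largely restated Per2 at this age. At 6 months it ran from 1.2 to 2.28 in KO+AAV, 1.54 to 4.22 in KO and 0.85 to 3.25 in WT hearts, and all 3 ranges overlapped. Whether the hearts of each group were taken at the same hour is not in the labels, so at 6 weeks the hour of collection and the genotype cannot be told apart.

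The vector group did not pass the test for any member. Between KO+AAV and KO hearts 0 of the 10 members were called, where 11.2% of all genes tested were, and all 10 overlapped, whereas 14.1% of genes did not. The median log2 change was 0.37, with 7 members above 0. Per3 had the only unadjusted p under 0.05 (log2 1.00, SE 0.46, adjusted p = 0.157), and it averaged 589.8 ± 260 in KO+AAV (n = 4) and 303 ± 156 in KO hearts (n = 5). Dbp averaged 1624 ± 924 in KO+AAV and 855 ± 444 in KO hearts (log2 0.89, SE 0.54, adjusted p = 0.278).

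Between KO+AAV and WT hearts 0 of 10 members were called either, where 1.33% of all genes were, and all 10 overlapped, whereas 5.40% of genes did not. No member had an unadjusted p under 0.05, as 2454 of all genes did, and adjusted p ranged from 0.399 for Per1 to 0.998 for Nr1d2. Nr1d2 averaged 1685 ± 274 in KO+AAV and 1725 ± 459 in WT hearts, with a 95% interval of -0.44 to 0.44 on the log2 scale. The KO+AAV comparisons share their libraries with each other and with that of KO against WT.

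**Figure D5:**
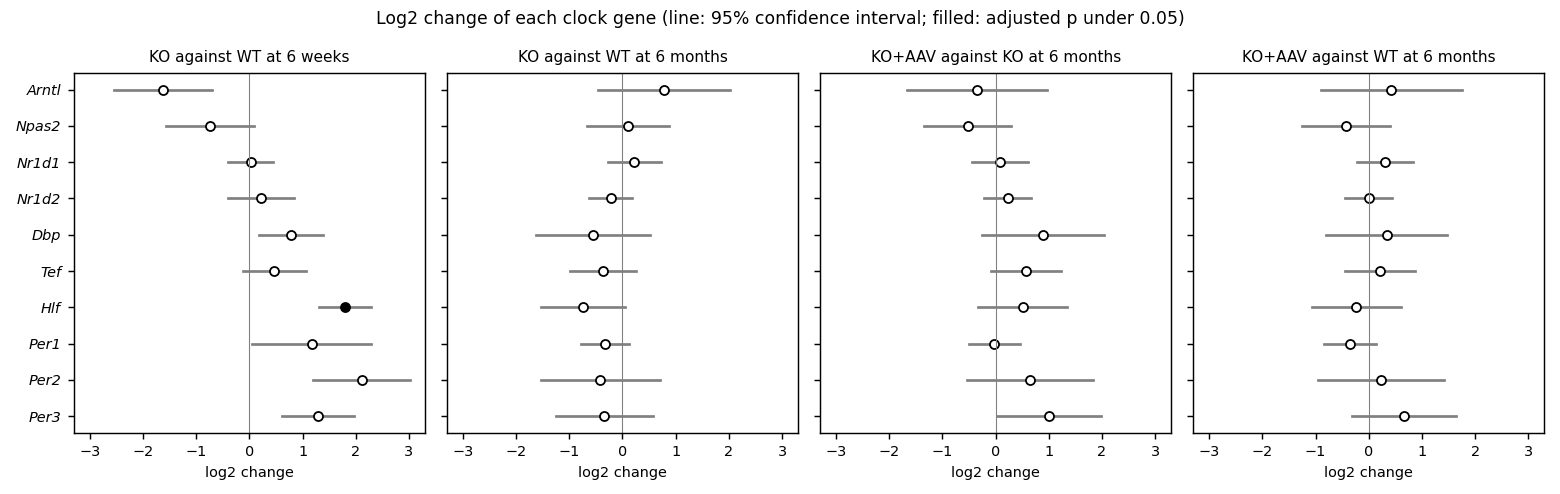
Log2 change of each gene in 4 comparisons from limma, with the first-named group over the second; horizontal lines are 95% confidence intervals, and a filled point has an adjusted p under 0.05. Hlf in KO against WT hearts at 6 weeks (1.80) is the only filled point, and at 6 months every interval but that of Per3 in KO+AAV against KO hearts crosses 0.

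The KO effect itself differed between the ages for 2 of the 10 members, where 4.08% of the 12709 genes tested at both ages were called (1.99% higher and 2.09% lower); both members were lower at 6 months. For Hlf the log2 change was -0.75 at 6 months and 1.80 at 6 weeks, a difference of -2.54 (SE 0.43, adjusted p = 0.00105). For Per2 it was -0.42 at 6 months and 2.11 at 6 weeks, a difference of -2.53 (SE 0.67, adjusted p = 0.0307). Arntl differed by 2.40 the other way (SE 0.72) with an adjusted p of 0.0573, and Per3 by -1.64 (SE 0.53) with 0.0811. In all, 7 members had an unadjusted p under 0.05, 1 higher and 6 lower, as had 2276 of all genes. The ages also differed in the summed atrial markers of WT hearts (95731 to 183310 at 6 weeks, 5916 to 9973 at 6 months). The part of the tissue taken in these age differences was not tested. The call for Per2 was lost without any 1 of WT6, KO3 and KO4 at 6 weeks or of WT 2, WT 3, KO 2 and KO 3 at 6 months, with differences from -2.51 to -2.01 and adjusted p from 0.0527 to 0.109; that for Hlf was not.

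Of 10 further genes of the clock loop, 0 passed the test between KO and WT hearts at either age. Of all genes tested, 0.589% did at 6 weeks and 16.3% at 6 months. The median log2 change of the 10 was 0.25 at 6 weeks and 0.03 at 6 months. Clock, the usual partner of ARNTL, had 300.0, 399 and 326 normalised counts in KO2, KO3 and KO4 against 613, 700.2 and 611 in WT1, WT6 and WT16 at 6 weeks. These groups did not overlap (log2 -0.91, adjusted p = 0.0606). At 6 months Clock averaged 594 ± 89.2 in KO+AAV, 815 ± 191 in KO and 622 ± 71.0 in WT hearts (log2 0.37 for KO over WT, adjusted p = 0.129). The effect on Clock differed between the ages by 1.28 (adjusted p = 0.00283).

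Ciart, which represses the ARNTL pair, had 76.5, 140.0 and 209 normalised counts in KO2, KO3 and KO4 against 77.3, 53.9 and 62.3 in WT1, WT6 and WT16, and its KO effect differed by -2.32 between the ages (adjusted p = 0.0336). The groups overlapped at 6 weeks through KO2. Bhlhe41, another repressor of ARNTL, averaged 277 ± 27.0 in KO and 141 ± 30.1 in WT hearts at 6 weeks (log2 0.98, adjusted p = 0.0712). Its relative Bhlhe40 fell in KO+AAV hearts, to 781 ± 257 against 1337 ± 113 in KO hearts (log2 -0.84, adjusted p = 0.0338), and this was the only 1 of the 10 called in that comparison. Between KO+AAV and WT hearts 0 of these 10 were called, with a median of -0.09. Of all genes tested, 11.2% were called in KO+AAV over KO hearts and 1.33% over WT hearts.

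Among 22 genes known to follow the clock in heart or other tissues, 1 fell and 0 rose in KO hearts at 6 weeks, where 0.211% of all genes fell and 0.378% rose, with a median log2 change of 0.23. The gene that fell was Ucp3, an uncoupling protein of mitochondria, with 198, 249.7 and 165 normalised counts in KO2, KO3 and KO4 against 444, 721 and 1355 in WT1, WT6 and WT16 (log2 -1.91, adjusted p = 0.0318). Wee1, a cell cycle kinase driven through E-boxes, had 139.9, 149 and 232 against 82.4, 24.7 and 39.9 (log2 1.94, adjusted p = 0.0543). The groups overlapped for neither gene: every KO library was below every WT library for Ucp3 and above it for Wee1.

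At 6 months, when the members showed no call, 7 of these 22 genes fell and 1 rose in KO hearts (median -0.49), where 16.3% of all genes tested were called. The cardiomyocyte and fibroblast marker sums given above moved with this comparison, and their part in it was not tested. Kcnip2, a potassium channel subunit whose transcript is rhythmic in mouse heart, had 777, 1337, 1477, 1402 and 628 normalised counts in KO 1 to 5 against 4148.5, 3175, 3110.6, 2621 and 3368 in WT 1 to 5 (log2 -1.61, adjusted p = 0.000222). The groups did not overlap. Herpud1, of endoplasmic reticulum quality control, also fell (log2 -0.90, adjusted p = 0.00055), as did the acyl-CoA thioesterase Acot1 (-1.31, 0.00337), and Tfrc, the transferrin receptor, rose (1.08, 0.000845). In KO+AAV over KO hearts 3 of the 22 rose and 2 fell (median 0.17), with Kcnip2 at 1.24 (adjusted p = 0.00549) and Acot1 at 0.92 (0.0482) among the first and Tfrc at -0.78 (0.0195) and Bnip3, a mitophagy receptor, at -0.75 (0.00984) as the second. Between KO+AAV and WT hearts 0 of the 22 were called (median -0.29). Of all genes tested, 11.2% were called in KO+AAV over KO hearts and 1.33% over WT hearts. Between the ages 4.08% were (1.99% higher and 2.09% lower). Between the ages the KO effect differed for 6 of the 22, 1 higher (Tfrc, 2.06) and 5 lower (Wee1, -2.24; Herpud1, -1.61; Pnpla2, a triglyceride lipase, -1.001 among them).

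Glucocorticoids are known to reset clocks in peripheral tissues and to switch on Per1, so 14 genes that respond to them were counted beside the members. At 6 weeks 2 rose and 0 fell in KO hearts, where 0.378% of all genes tested rose and 0.211% fell, and the median log2 change of the list was 0.76. Fkbp5, a chaperone of the glucocorticoid receptor, had 443, 1100.0 and 984 normalised counts in KO2, KO3 and KO4 against 299.6, 139 and 137 in WT1, WT6 and WT16 (log2 2.12, adjusted p = 0.0314). Ddit4, an inhibitor of mTORC1, had 612, 933 and 962 against 235, 105 and 349 (log2 1.99, adjusted p = 0.0373). No KO library was below a WT library for either.

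At 6 months 0 of the 14 were called between KO and WT hearts (median -0.25), and the KO effect differed between the ages for 4, all lower, among them Ddit4 (-2.23), Fkbp5 (-2.003) and Tsc22d3, also called GILZ (-1.57). In KO+AAV over KO hearts 1 rose, the sulfotransferase Sult1a1 (log2 1.04, adjusted p = 0.0284), with a median of -0.38, and between KO+AAV and WT hearts 0 were called (median -0.48). Of all genes tested, 16.3% were called between KO and WT hearts at 6 months, and 4.08% between the ages (1.99% higher and 2.09% lower). The share was 11.2% in KO+AAV over KO hearts and 1.33% over WT hearts. The part of glucocorticoids in the clock results was not tested.

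Of 16 immediate early genes, which answer quickly to handling and other stimuli, 0 were called in KO hearts at 6 weeks (median log2 change 0.24). At 6 months Arc, the neuronal plasticity gene, fell in KO hearts (262 ± 151 in KO against 1323 ± 482 in WT hearts, n = 5 each; log2 -2.42, adjusted p = 0.00241), and the other 15 were not called (median -0.77). In KO+AAV over KO hearts the zinc finger gene Egr2 fell (log2 -3.03, adjusted p = 0.0274; median of the list -0.91), and over WT hearts 3 fell, Arc (-3.29), Nr4a3, an orphan nuclear receptor (-2.98), and Btg2, an antiproliferative gene (-1.84), with a median of -1.89. The KO effect differed between the ages for 1, Arc (-2.80, adjusted p = 0.0131). Of all genes tested, 0.589% were called in KO hearts at 6 weeks and 16.3% at 6 months. The share was 11.2% in KO+AAV over KO hearts, 1.33% over WT hearts and 4.08% between the ages.

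A further list held 11 kinases, ubiquitin ligases and the deubiquitinase Usp7, which act on PER and CRY proteins or on the REV-ERBs. Of these 11 genes 0 were called at 6 weeks (median 0.04). At 6 months Gsk3b alone was called, higher in KO than in WT hearts (974 ± 110 against 754 ± 94.2, n = 5 each; log2 0.37, adjusted p = 0.0459) and lower in KO+AAV than in KO hearts (log2 -0.44, adjusted p = 0.0380). Between KO+AAV and WT hearts and between the ages 0 of the 11 were called. Over all genes tested the shares called were 0.589% in KO hearts at 6 weeks and 16.3% at 6 months. They were 11.2% in KO+AAV over KO hearts, 1.33% over WT hearts and 4.08% between the ages.

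The genes whose pattern was most like the clock contrast were sought among 9187 genes with a mean of at least 100 at 6 months, by Pearson r over the 14 libraries after removal of group means. Of these, 5 had r above 0.8 and 6 below -0.8. The 4 with the highest r were Ciart (0.973), Vwf (0.865), Tspan4 (0.862) and Smad6 (0.839), and the 4 with the lowest were Leo1 (-0.914), Clock (-0.862), Adam19 (-0.829) and Nck2 (-0.813). Over the 6 libraries at 6 weeks r was 0.598 for Ciart, 0.669 for Tspan4, -0.906 for Leo1 and -0.403 for Clock. Adam19 (-0.132) and Nck2 (-0.016) lay closer to 0 there, and Vwf (-0.145) and Smad6 (-0.869) had the opposite sign. These r are descriptions, and the libraries of a table share 1 normalisation.

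Of the 10 further loop genes, Ciart, Clock and Cry2 (r = 0.814) lay beyond 0.8 either way at 6 months, and Bhlhe41 followed at 0.792. Cry1 (0.004), Bhlhe40 (0.077), Timeless (-0.214), Rora (0.296) and Nfil3 (-0.434) lay closer to 0. Ciart had 309, 79.98, 185 and 204 normalised counts in KO+AAV 1 to 4, 129, 31.2, 54.8, 179.9 and 105 in KO 1 to 5, and 199, 432, 328, 64.7 and 213 in WT 1 to 5. KO+AAV 2, KO 2 and WT 4 were the lowest of their groups, as they were for Dbp and Per3.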

How the data were processed

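RNA of heart tissue labelled as ventricular was sequenced as stranded poly(A) libraries with 150 bp read pairs. The build was mm10. These points follow the labels' protocols and the submitters' processing notes. No source used here names the aligner, read counter, annotation or strand setting. The authors deposited normalised counts, a fractional signal on a common scale within a table and normalised separately at each age; read depth behind each value is unknown, and no count test was used. No column was left out. The 6-week columns matched their group but no single sample. At 6 months 7 of 13 like-numbered pairs correlated above 0.1 across genes (-0.391 to 0.253 over all 13). Unlike-numbered pairs were not compared, so these values do not settle whether replicate numbers pair the libraries. The main model took the libraries as unpaired.

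Values were transformed as log2(value + 1). Fold changes are on that scale, which understates those of low genes. limma 3.58.1 in R 4.3.3 (moderated variances with a mean-variance trend, two-sided) was run over all genes past the filter, with Benjamini-Hochberg adjusted p and a threshold of 0.05. A single model held KO+AAV, KO and WT at 6 months, and simulated data were used to test the script. KO effects at both ages were compared by their difference over the combined standard error, with Welch-Satterthwaite degrees of freedom. Relations to Arntl used 100000 permutations within groups, two-sided. Python 3.11.15 (pandas 2.3.3, numpy 2.4.6, scipy 1.17.1, matplotlib 3.10.9) served for tables and plots. Gene positions are those of GENCODE on GRCm38, which is mm10. Nothing says whether libraries of a group came from separate litters, and p-values measure the spread between these libraries.

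The members and lists were chosen with earlier results of these data known. All members were named, with up to 4 genes of smallest p per list and comparison, and the 8 genes most like the clock contrast; predicted genes and clones were left out of the last. Alternatives were other pseudocounts, filters, scalings and variance models, the replicate block, the Xist or Y-linked class of a library, and leaving out each library.

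The value of 1 listed gene is not reported here.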

Additional observations from a re-analysis of the deposited data

Results flagged for a closer look

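In groups of 4 or 5 libraries at 6 months, a library was marked where its gap to the nearest other library took up more of the range of its group than Dixon's 95% limit allows. Over 30 combinations of gene and group, 3 were marked, where chance alone marks about 5% of groups. Npas2 in WT 4 was the highest of its group by 0.806 of the range, with 138 normalised counts beside 49.97 to 67.1 in the other WT libraries. Per1 in KO+AAV 2 was the highest of its group by 0.99 of the range, with 2479.8 beside 1439.8 to 1451 in the others. Hlf in KO+AAV 2 was the lowest of its group by 0.841 of the range, with 115 beside 339.5 to 382. WT 4 and KO+AAV 2 were also the libraries of highest Arntl and lowest Dbp in their groups.

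The KO effect on Hlf differed between the ages, with a log2 difference of -2.54 between 6 months and 6 weeks (limma, adjusted p = 0.00105): at 6 months 3 of 5 KO libraries lay below all WT libraries and 2 within their range, and at 6 weeks 3 of 3 KO libraries lay above all WT libraries. The KO effect on Per2 differed by -2.53 (limma, adjusted p = 0.0307), with 3 of 3 KO libraries above all WT libraries at 6 weeks and overlapping groups at 6 months. Whether the hearts of both ages were collected at the same hour is not in the labels and was not tested. Nor was the part of the tissue taken, where the summed atrial markers differed between the ages in WT hearts too.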

How the results depend on the processing

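Over 1586 repeats of the results under alternative settings, 1486 kept their direction and side of the threshold (or moved within their error), 13 lost a call, 22 gained one, 24 counts or values moved further, and 41 changed sign. At 6 weeks the count of members called, 1 in the main analysis, was 2 with a pseudocount of 5, a filter at 50, quantile normalisation or the Xist or Y-linked class as a covariate (Per2 joined Hlf), 0 in limma without trend, 5 in the Y-linked libraries alone (2 of 3 in each group), and 0 to 2 when single libraries were left out (0 without WT6, KO3 or KO4; 2 without WT16 or KO2). The count of members whose KO effect differed between the ages, 2, was 1 without trend or with robust moderation, 5 in the Y-linked libraries alone, and 1 to 4 when single libraries were left out (4 without WT1 at 6 weeks, or WT 4 or KO 4 at 6 months). At 6 months 0 members were called in every comparison and alternative run. The replicate block at 6 months also left 0 members called; over all genes it called 2071 in KO against WT, 1764 in KO+AAV against KO and 183 in KO+AAV against WT hearts, where the main analysis called 2189, 1509 and 178.

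Changes of sign concerned effects that did not pass the test in the main analysis. In KO against WT hearts at 6 months Npas2 was -0.042 after quantile normalisation. In KO+AAV against KO hearts Per1 was 0.044 with the replicate block, 0.019 with the class covariate and 0.17 in Y-linked libraries, Arntl was 0.12 in Y-linked libraries, and Nr1d1 was -0.006 with equal totals and -0.28 in Y-linked libraries. In KO+AAV against WT hearts Nr1d2 was 0.076 with equal totals, 0.11 after quantile normalisation and 0.036 with the replicate block; Y-linked libraries alone gave Npas2 0.20, Per2 -0.075, Nr1d1 -0.23, Dbp -0.69 and Tef -0.24, and -0.022 for the age difference of Nr1d1.

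Leaving out single libraries gave log2 changes of -0.10 to 0.14 for Nr1d1 and -0.024 to 0.50 for Nr1d2 (KO against WT at 6 weeks), -0.14 to 0.35 for Npas2 and -0.70 to 0.10 for Per2 (KO against WT at 6 months), -0.22 to 0.077 for Per1 and -0.10 to 0.31 for Nr1d1 (KO+AAV against KO), and -0.053 to 0.43 for Per2, -0.16 to 0.094 for Nr1d2, -0.11 to 0.77 for Dbp, -0.027 to 0.34 for Tef and -0.43 to 0.18 for Hlf (KO+AAV against WT). The r of Arntl with Nr1d1 ran from -0.685 to -0.257 and passed without WT 1 or WT 2; that with Per1 ran from -0.378 to 0.205. The cause of these changes was not tested. A replicate block at 6 weeks could not be run, since the column numbers match no replicate number of the labels, and Arntl and Npas2 fell under the filter at 50 at that age. Read depth is unknown, and there were 3 libraries per group at 6 weeks.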
